A study of Mus musculus with 9 samples.

Results

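The 8 genes described here encode proteins that T cells secrete: the interleukins Il2, Il4, Il10 and Il21, interferon gamma (Ifng), the colony-stimulating factors Csf1 and Csf2, and the chemokine Ccl5. They were taken by gene symbol from the deposited expression table, where all 8 are among the 16500 genes listed. Primary CD4+ T cells isolated from C57BL/6 mice had been transduced with an NFAT2_CA, an NFAT2_CARIT or a Control retroviral vector, and their RNA was sequenced as paired ends. Each group had 3 libraries, 9 in all. NFAT2, a transcription factor, is the product of Nfatc1. The CA form works without the calcineurin signal that NFAT2 normally needs, and in CARIT further changes (RIT) impair its joint binding to DNA with AP-1, the dimer of Fos and Jun proteins. All 3 groups share the mouse strain, the cell type, the culture medium with 10% fetal bovine serum and a transduction step. The labels give no animal age, no time after transduction and no restimulation of the cells. Nor do they say that the 3 libraries of a group come from different mice or cultures, so the spread behind every p-value may be technical.

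When a T cell receptor is engaged, calcium entry activates calcineurin, which removes phosphates from NFAT and lets it enter the nucleus. At many cytokine genes NFAT binds beside AP-1, which a parallel kinase pathway supplies, and the pair drives transcription together. Il2 is the best known of these genes. NFAT without AP-1 is known for turning on another set of genes, linked to T cells that respond poorly to antigen. Which cytokine transcripts depended on the ability of NFAT2 to pair with AP-1 is the question that the comparison of NFAT2_CARIT with NFAT2_CA addresses.

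The DNA just upstream of 4 of these genes is shown, with the letters that NFAT recognises marked. Of these genes Il21, Csf1 and Il4 rose with both vectors, and Il2 was too low to test. NFAT proteins bind a core that reads GGAAA. RefSeq promoter windows (GRCm38.p6) were found for 6 of the 8 genes: Il2, Il4, Il21, Ifng, Csf1 and Csf2. None was found for Il10 or Ccl5. The windows of Csf2 and Ifng also held the core and are not printed. Of each window the 250 bases before the annotated start were used. Every run below reads 5′ to 3′ on the gene's own minus strand and ends at the base before the start. Capitals mark the core, as GGAAA where it lies on the gene's strand and as TTTCC where it lies on the opposite one.
Il21 (chr3:37232637-37232886, minus strand): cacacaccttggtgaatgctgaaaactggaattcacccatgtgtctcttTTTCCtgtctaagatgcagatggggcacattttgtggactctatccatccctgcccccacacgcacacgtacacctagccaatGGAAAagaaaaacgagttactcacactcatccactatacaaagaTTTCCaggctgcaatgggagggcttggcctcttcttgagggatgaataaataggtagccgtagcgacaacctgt
Csf1 (chr3:107760470-107760719, minus strand): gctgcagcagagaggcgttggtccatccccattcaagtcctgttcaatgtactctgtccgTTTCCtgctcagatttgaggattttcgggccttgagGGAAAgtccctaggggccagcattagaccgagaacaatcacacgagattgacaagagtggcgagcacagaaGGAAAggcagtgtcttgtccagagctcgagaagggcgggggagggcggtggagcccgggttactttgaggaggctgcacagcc
Il4 (chr11:53618666-53618915, minus strand): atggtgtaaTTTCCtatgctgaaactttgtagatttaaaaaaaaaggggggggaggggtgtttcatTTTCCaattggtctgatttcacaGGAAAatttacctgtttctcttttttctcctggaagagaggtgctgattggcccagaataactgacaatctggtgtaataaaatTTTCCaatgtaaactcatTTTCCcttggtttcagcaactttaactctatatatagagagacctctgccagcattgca
Il2 (chr3:37125955-37126204, minus strand): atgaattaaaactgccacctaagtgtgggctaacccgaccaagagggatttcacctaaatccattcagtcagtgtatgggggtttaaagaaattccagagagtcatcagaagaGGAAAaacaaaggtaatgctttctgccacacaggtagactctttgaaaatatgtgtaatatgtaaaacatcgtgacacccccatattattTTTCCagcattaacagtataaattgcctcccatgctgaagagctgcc

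The Il21 window held 3 cores, the Csf1 window 3, this Il4 window 5 and the Il2 window 2. The Csf2 window, whose RefSeq start lies 232 bases upstream of the deposited start, held 2, and the Ifng window held 1. A second Il4 window, which lies inside the deposited gene, held 0. Of all 32851 RefSeq windows of this length, 55.6% held at least 1 core on either strand, 21.4% at least 2, 6.39% at least 3 and 0.39% at least 5. A link between these letters and the changes in level was not tested. Neither an AP-1 heptamer (TGANTCA, both strands) nor a composite of NFAT and AP-1 letters (the core followed, after any 5 bases, by TTTCA, both strands, so that it overlaps the core) was found in any of the 7 windows. Those strings occurred in 6.75% and 0.116% of all windows. A match is a string of letters and not a measured binding site, and no match says only that these letters are not in this stretch.

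**Figure D1:**
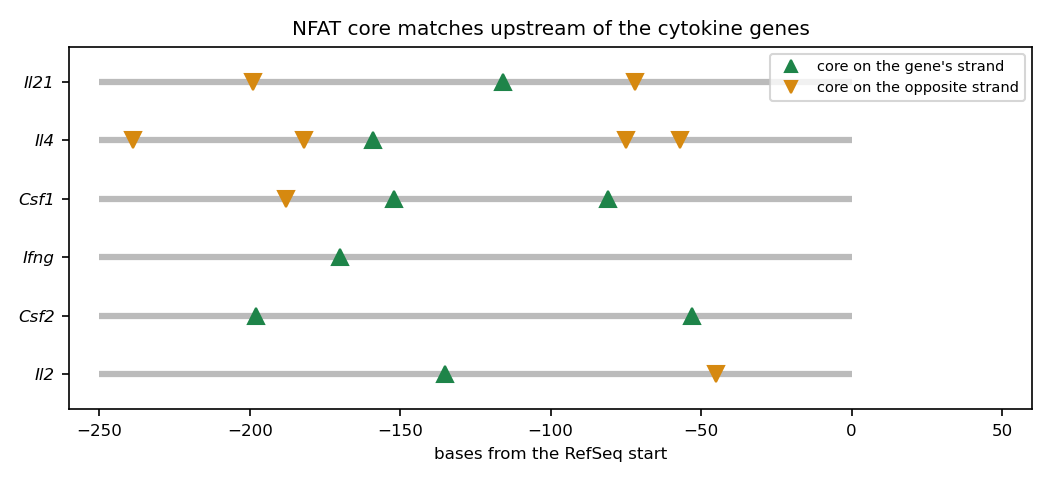
Positions of the NFAT core (GGAAA) in the 250 bases upstream of 6 cytokine genes, in bases from the RefSeq start; triangles pointing up lie on the gene's strand and those pointing down on the opposite strand. Il4 has 5 matches, Il21 and Csf1 have 3 each, Il2 and Csf2 have 2 each and Ifng has 1.

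The values are in CPM, a gene's reads relative to all reads of its library. The steps between low values put depth at 19947800 to 38189000 reads a library, so that 3 reads equal 0.0786 to 0.150 CPM, a limit that covers counting error only. Nfatc1, whose product the 2 NFAT2 vectors encode, stood at 342, 336 and 395 CPM with NFAT2_CA, at 240.5, 245 and 253 CPM with NFAT2_CARIT and at 224, 228 and 188 CPM in Control. Reads from the vector and from the chromosomal gene cannot be told apart in it. It was 0.74 ± 0.08 higher (log2 scale, estimate ± SE) with NFAT2_CA than in Control (limma, adjusted p = 5.73e-07) and 0.21 ± 0.08 higher with NFAT2_CARIT (limma, adjusted p = 0.0257). The second call was lost without NFAT2_CARIT replicate 2 (limma, adjusted p = 0.0605), NFAT2_CARIT replicate 3 (0.0789) or Control replicate 3 (0.11), and the authors' deposited table does not make it (0.192). All 8 CD4 T cell markers were listed, and their summed level was 6419 to 6908 CPM with NFAT2_CA, 6244 to 6302 CPM with NFAT2_CARIT and 5689 to 5887 CPM in Control. Not all 8 followed the sum, as Cd5 and Cd247 were higher in every Control library than in any other library. Cd8a, which defines CD8 T cells, lay between 0.128 and 2.00 CPM over all libraries.

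The 3 groups differed in their cytokine transcripts. With NFAT2_CA against Control, Il10 was 19.0-fold higher in mean CPM, Il21 13.4-fold and Csf1 13.4-fold, while Ifng was 3.13-fold and Il4 1.69-fold higher. The rise of Ifng was lost when any of 4 single libraries was left out. Ccl5 was 1.62-fold lower and Csf2 7.42-fold lower, on 6 reads against 50. With NFAT2_CARIT against Control, 4 genes rose, Il21 16.6-fold, Il10 6.70-fold, Csf1 4.62-fold and Il4 1.84-fold, and the levels of Ccl5, Csf2 and Ifng did not pass the test against Control. Between the vectors, Il10 was 2.84-fold and Csf1 2.90-fold lower with NFAT2_CARIT than with NFAT2_CA, and Ccl5 was 1.74-fold and Csf2 6.53-fold higher (51 reads against 6). This difference in Csf2 was also lost when any of 4 single libraries was left out. Both comparisons against Control use the same 3 Control libraries. In bulk RNA, more cells making a transcript and more transcript per cell cannot be told apart.

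Log2 fold changes come from limma on log2(CPM + 1), which understates the change of low genes, fitted over the 14340 genes that reached 0.5 CPM in at least 3 libraries. A gene was called at an adjusted p under 0.05. With NFAT2_CA against Control 7 of the 7 cytokine genes tested were called, 5 higher and 2 lower, where 61.8% of all genes tested were called (27.8% higher, 34.0% lower). With NFAT2_CARIT against Control 4 were called, all higher, where 66.4% of all genes were called (27.7% higher, 38.6% lower), and for NFAT2_CARIT against NFAT2_CA 4 were called, 2 lower and 2 higher, where 25.8% were (10.6% higher, 15.3% lower). With most genes called in the first 2 comparisons, the count of calls sets these genes apart in neither, and what follows turns on the size of the changes. Il2 was not tested because it reached 0.5 CPM in 1 library. Ifng and Csf2 passed that filter only through some libraries of the groups where they were high (Ifng in NFAT2_CA and NFAT2_CARIT, Csf2 in NFAT2_CARIT and Control), so their entry into the test depended on a difference or on single libraries. Full separation of all libraries of a pair of groups was seen for 7, 4 and 5 of the 8 genes in these comparisons, and for 65.7%, 70.5% and 41.6% of all genes tested. The authors' deposited table calls fewer genes throughout (21.9%, 25.6% and 2.84% in the same order). Of these 8 genes it calls Il10, Il21 and Csf1 with each vector against Control, and Il10 and Csf1 between the vectors.

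**Figure D2:**
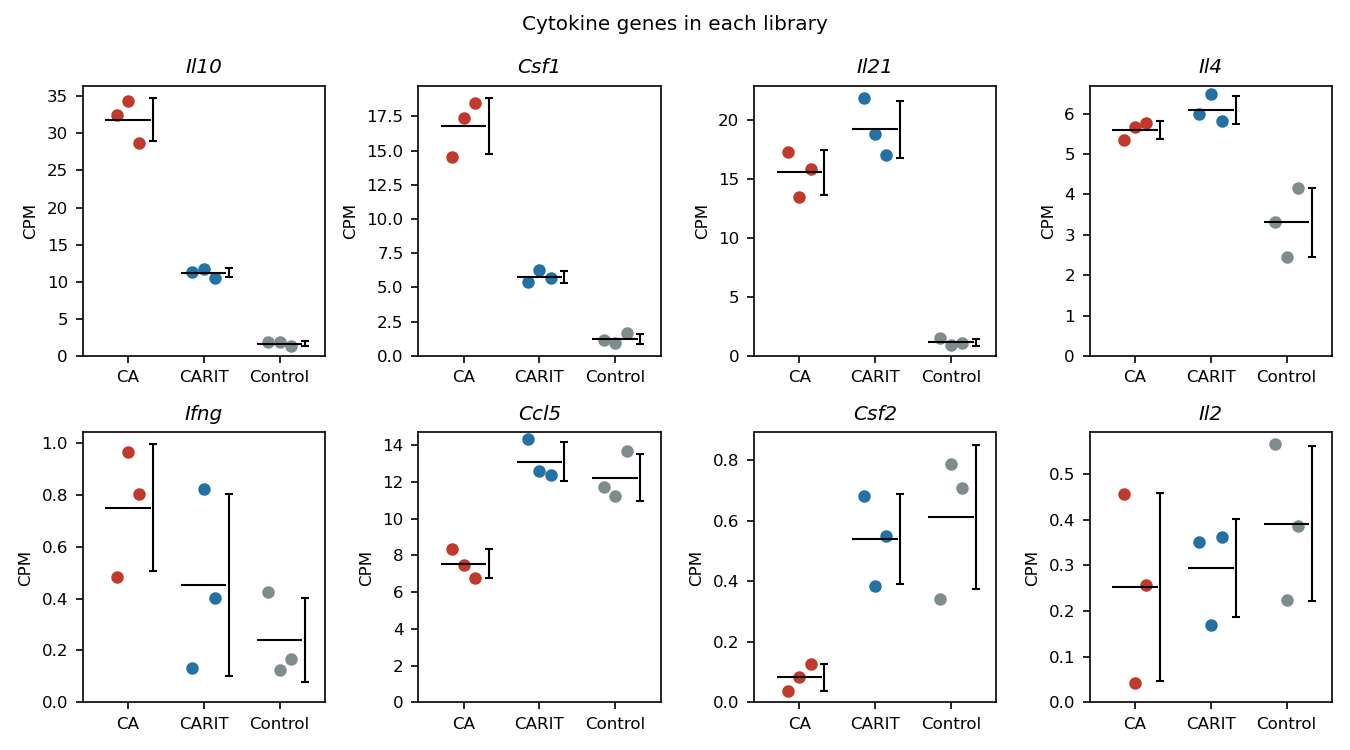
CPM of each cytokine gene in each library (points), with the group mean (long bar) and the SD over 3 libraries (error bar); each panel has its own linear axis from 0. CA, CARIT and Control stand for the 3 vectors. Il10 and Csf1 step down from NFAT2_CA through NFAT2_CARIT to Control without overlap, Il21 is high with both vectors, and Csf2 is lowest with NFAT2_CA.

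Il10 (chromosome 1, 131019845 to 131024975, plus strand, GRCm38) encodes interleukin 10, which restrains inflammatory responses, chiefly of antigen-presenting cells. It measured 32.4, 34.4 and 28.8 CPM with NFAT2_CA, 11.3, 11.8 and 10.5 CPM with NFAT2_CARIT and 1.83, 1.86 and 1.33 CPM in Control. The 3 groups did not overlap, and NFAT2_CARIT lay between the other groups. The log2 fold change was 3.62 ± 0.11 with NFAT2_CA against Control (limma, adjusted p = 1.96e-13) and 2.20 ± 0.11 with NFAT2_CARIT (limma, adjusted p = 6.61e-11). Only 32 of the 14340 genes tested had a higher log2 fold change in the first comparison, against 266 in the second. The vectors differed by -1.43 ± 0.11 (NFAT2_CARIT against NFAT2_CA; limma, adjusted p = 1.76e-07), and 52 genes lay further down. The authors' deposited table gives log2 ratios of 4.25, 2.74 and -1.51 for the same comparisons.

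Csf1 (chromosome 3, 107741048 to 107760470, minus strand) encodes macrophage colony-stimulating factor, which keeps macrophages and their precursors alive and growing. It stood at 14.5, 17.3 and 18.5 CPM with NFAT2_CA, 5.42, 6.29 and 5.66 CPM with NFAT2_CARIT and 1.15, 0.945 and 1.67 CPM in Control. As for Il10, no group overlapped another and NFAT2_CARIT was intermediate. The rise was 2.99 ± 0.14 (log2) with NFAT2_CA (limma, adjusted p = 2.69e-11) and 1.60 ± 0.14 with NFAT2_CARIT (limma, adjusted p = 4.16e-08). NFAT2_CARIT libraries were lower than NFAT2_CA libraries by 1.38 ± 0.14 on the log2 scale (a log2 fold change of -1.38; limma, adjusted p = 2.50e-06), with 56 genes further down. In the authors' deposited table this last difference has an FDR of 0.047.

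Il21 (chromosome 3, 37222759 to 37232637, minus strand) encodes interleukin 21, the product of follicular helper T cells that drives B cells in germinal centres. Its levels were 17.3, 13.5 and 15.9 CPM with NFAT2_CA, 21.8, 18.8 and 17.0 CPM with NFAT2_CARIT and 1.48, 0.922 and 1.08 CPM in Control. Both vectors lay far above Control, and their own ranges overlapped: the lowest NFAT2_CARIT library was below the highest NFAT2_CA library. Against Control the log2 fold change was 2.94 ± 0.13 with NFAT2_CA (limma, adjusted p = 1.68e-11) and 3.23 ± 0.13 with NFAT2_CARIT (limma, adjusted p = 4.78e-12). In the second comparison 54 genes had a higher log2 fold change. The difference between the vectors, 0.29 ± 0.13 with a 95% interval of 0.01 to 0.56, did not pass the adjusted threshold (limma, adjusted p = 0.12; unadjusted p = 0.0417). In mean CPM Il21 stood at 19.2 ± 2.44 with NFAT2_CARIT and 15.6 ± 1.92 with NFAT2_CA (SD, n = 3 each), where Il10 and Csf1 were lower with NFAT2_CARIT.

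Pseudocounts of 0.1 and 5 CPM in place of 1 changed the log2 fold changes of these 3 genes, in some by more than 1.5 times, and left each of their calls in place. Over the 18 limma settings, Csf1 with NFAT2_CARIT against Control ran from 0.79 to 2.15 and Il21 with NFAT2_CA against Control from 1.74 to 3.65. The authors' deposited table gives log2 ratios of 2.21 and 3.75 for these comparisons, above both ranges. The reads of Il21 may include some of the antisense gene Gm12534 that overlaps it, since the use of strand in counting is not stated. Gm12534 itself averaged 0.562 CPM with NFAT2_CA, 0.401 CPM with NFAT2_CARIT and 0.050 CPM in Control, far below Il21.

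Nfatc1 stood in the same order of groups as Il10 and Csf1 and was lower with NFAT2_CARIT than with NFAT2_CA (log2 difference -0.53 ± 0.08; limma, adjusted p = 0.000127). Markers of other cell types moved in the same order as Il10 and Csf1 in 3 lists. The 3 NK cell markers listed of 6 summed to 117 to 123 CPM with NFAT2_CA, 49.6 to 55.9 CPM with NFAT2_CARIT and 17.1 to 19.7 CPM in Control. Nearly all of that was Nkg7, a granule membrane gene of NK cells and T cells, at 115, 121 and 114 CPM with NFAT2_CA against 8.80, 10.2 and 9.37 CPM in Control. Klrd1, an NK cell receptor, went the other way, at 0.251 to 0.446 CPM with NFAT2_CA against 4.85 to 6.62 CPM in Control. The CD8 T cell markers, 2 of 2 listed, summed to 28.4 to 30.8 CPM with NFAT2_CA, 22.6 to 24.0 CPM with NFAT2_CARIT and 12.5 to 13.7 CPM in Control, nearly all from Cd8b1. The 4 dendritic cell markers listed of 5 summed to 91.9 to 99.5, 73.2 to 86.3 and 63.2 to 72.7 CPM in the same group order, mostly H2-Ab1, while Itgax lay between 0 and 1.35 CPM. Myeloid markers, 3 listed of 6, summed to 9.78 to 12.4 CPM with NFAT2_CA and 14.9 to 16.2 CPM with NFAT2_CARIT, against 38.1 to 42.5 CPM in Control. Cd68 among them went the other way. It lay at 5.565 to 5.949 CPM with NFAT2_CA and 7.226 to 8.813 CPM with NFAT2_CARIT, against 3.685 to 4.505 CPM in Control. B cell markers, 2 listed of 5, summed to 0.628 to 1.23 CPM with NFAT2_CA, 0.733 to 1.60 CPM with NFAT2_CARIT and 2.50 to 3.47 CPM in Control. Kit, the 1 mast cell and basophil marker listed of 5, was at 0.928 to 1.13 CPM with NFAT2_CA, 3.57 to 3.81 CPM with NFAT2_CARIT and 2.25 to 2.85 CPM in Control, low with NFAT2_CA as Ccl5 and Csf2 were. The part of Nfatc1 level and of these markers in the cytokine results was not tested.

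**Figure D3:**
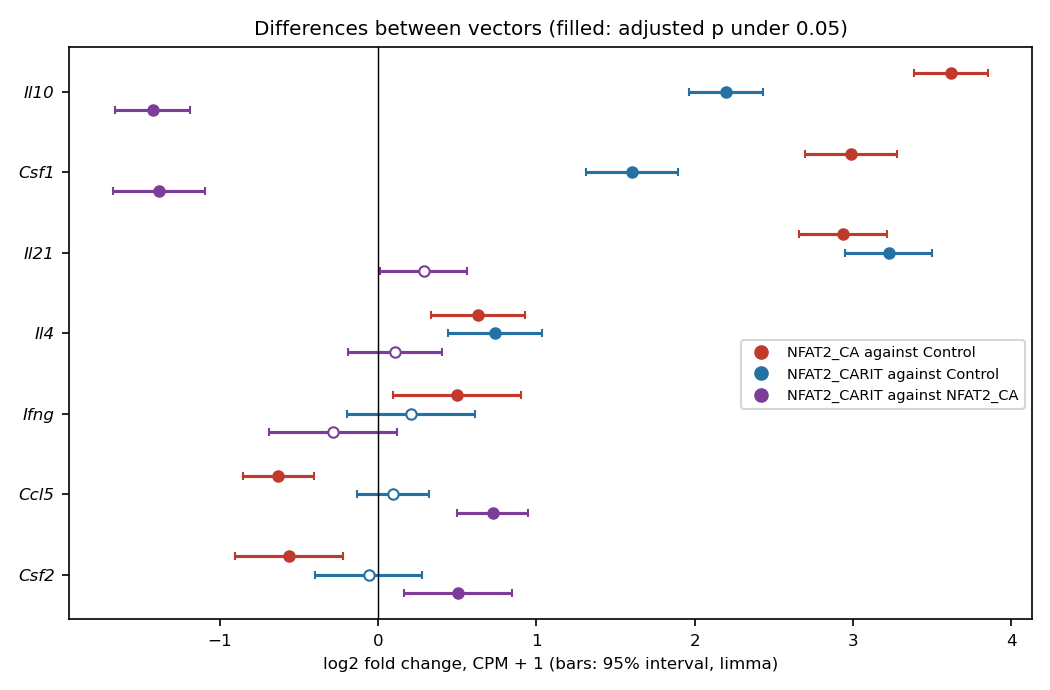
Log2 fold change on CPM + 1 for the 7 cytokine genes tested, from limma, with 95% intervals; red is NFAT2_CA against Control, blue NFAT2_CARIT against Control and purple NFAT2_CARIT against NFAT2_CA, and filled points have an adjusted p under 0.05. Il10 and Csf1 lie far right of 0 with both vectors and left of 0 between the vectors. Ccl5 and Csf2 lie left of 0 with NFAT2_CA (-0.63 and -0.56) and right of 0 between the vectors (0.72 and 0.50), with open points near 0 for NFAT2_CARIT against Control.

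Il4 (chromosome 11, 53602982 to 53618670, minus strand) encodes interleukin 4, the cytokine of type 2 helper cells that makes B cells switch to IgE. It was at 5.35, 5.66 and 5.78 CPM with NFAT2_CA, 6.00, 6.48 and 5.81 CPM with NFAT2_CARIT and 3.32, 2.46 and 4.17 CPM in Control. Every library of either vector exceeded every Control library, and all NFAT2_CARIT libraries exceeded all NFAT2_CA libraries by a small margin. The rise against Control was 0.63 ± 0.14 (log2) with NFAT2_CA (limma, adjusted p = 0.000968) and 0.74 ± 0.14 with NFAT2_CARIT (limma, adjusted p = 0.000225). The vectors did not differ beyond the test (0.10 ± 0.14, 95% interval -0.19 to 0.40; limma, adjusted p = 0.636). The authors' deposited table calls neither rise, with FDR values of 0.446 and 0.303. Il13, the neighbouring type 2 cytokine gene 12654 bases away, averaged 0.252, 0.223 and 0.158 CPM with NFAT2_CA, NFAT2_CARIT and Control and was too low to test.

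Ccl5 (chromosome 11, 83525778 to 83530519, minus strand) encodes a chemokine that draws T cells and monocytes. Its levels were 8.37, 7.46 and 6.79 CPM with NFAT2_CA, 14.3, 12.6 and 12.4 CPM with NFAT2_CARIT and 11.7, 11.3 and 13.7 CPM in Control. The NFAT2_CA libraries stood below all others, and the NFAT2_CARIT and Control ranges overlapped. Ccl5 fell with NFAT2_CA, by 0.63 ± 0.11 on the log2 scale (limma, adjusted p = 8.89e-05), and was 0.72 ± 0.11 higher with NFAT2_CARIT than with NFAT2_CA (limma, adjusted p = 0.000132). Between the vectors 178 genes of 14340 had a higher log2 fold change. NFAT2_CARIT against Control gave 0.09 ± 0.11 with a 95% interval of -0.13 to 0.32 (limma, adjusted p = 0.454). The authors' deposited table has log2 ratios of -0.70 and 0.80 for the 2 differences called here, with FDR values of 0.234 and 0.6, and calls neither.

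Csf2 (chromosome 11, 54247271 to 54249668, minus strand) encodes GM-CSF, a growth and activation factor for granulocytes, macrophages and dendritic cells. It measured 0.0372, 0.0838 and 0.127 CPM with NFAT2_CA, 0.681, 0.384 and 0.551 CPM with NFAT2_CARIT and 0.340, 0.788 and 0.708 CPM in Control. All 3 NFAT2_CA libraries lay below the other 6, at 1, 2 and 3 estimated reads. Over the group NFAT2_CA held 6 reads, against 51 with NFAT2_CARIT and 50 in Control. The depth-scaled ratio of those reads was 0.128 for NFAT2_CA over Control, with an exact counting interval of 0.0447 to 0.298 (95%), and 6.69 for NFAT2_CARIT over NFAT2_CA, with an interval of 2.87 to 19.1. These intervals cover counting error only. On the log2(CPM + 1) scale Csf2 fell by 0.56 ± 0.16 with NFAT2_CA (limma, adjusted p = 0.00612) and was 0.50 ± 0.16 higher with NFAT2_CARIT than with NFAT2_CA (limma, adjusted p = 0.0299). The call between the vectors was lost without NFAT2_CA replicate 1 (limma, adjusted p = 0.0843) or 2 (0.0674), without NFAT2_CARIT replicate 1 (0.114) or 3 (0.0688), and with a pseudocount of 5 CPM (0.0627). The authors' deposited table calls neither difference, with FDR values of 0.318 and 1. NFAT2_CARIT and Control did not differ beyond the test (-0.06 ± 0.16, 95% interval -0.40 to 0.28; limma, adjusted p = 0.757).

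Ifng (chromosome 10, 118441046 to 118445893, plus strand) encodes interferon gamma, the activator of macrophages that type 1 helper cells release. Its levels were 0.483, 0.964 and 0.801 CPM with NFAT2_CA, 0.131, 0.824 and 0.401 CPM with NFAT2_CARIT and 0.425, 0.126 and 0.167 CPM in Control, from 4 to 30 estimated reads a library. The NFAT2_CA libraries lay above the Control libraries, while the NFAT2_CARIT libraries spread across both. The log2 fold change of 0.50 ± 0.19 with NFAT2_CA passed the test (limma, adjusted p = 0.0332). That call did not hold without NFAT2_CA replicate 2 (limma, adjusted p = 0.115) or 3 (0.0618), without Control replicate 2 (0.107) or 3 (0.0878), under quantile normalization (0.175) or in the authors' deposited table (FDR 0.629). The summed reads were 55 with NFAT2_CA and 18 in Control, a depth-scaled ratio of 3.25 (exact counting interval 1.88 to 5.89). With NFAT2_CARIT they were 43, a ratio of 2.0 over Control (1.13 to 3.69) and 0.616 over NFAT2_CA (0.403 to 0.935). These intervals cover counting error only and leave out the spread between libraries, and all 3 exclude a ratio of 1, also where the test over libraries did not pass. Neither NFAT2_CARIT against Control (0.21, 95% interval -0.20 to 0.61; limma, adjusted p = 0.348) nor NFAT2_CARIT against NFAT2_CA (-0.29, 95% interval -0.69 to 0.12; limma, adjusted p = 0.301) passed.

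Il2 (chromosome 3, 37120523 to 37125960, minus strand) encodes interleukin 2, the growth factor that activated T cells make for themselves and for regulatory T cells. It stood at 0.456, 0.0430 and 0.258 CPM with NFAT2_CA, 0.351, 0.169 and 0.361 CPM with NFAT2_CARIT and 0.565, 0.224 and 0.385 CPM in Control. The 3 groups overlapped, and all libraries were near the limit of detection, with summed estimates of 19.4, 26.7 and 29.6 reads. Exact two-sided permutation tests gave p = 0.5 for NFAT2_CA against Control, 0.4 for NFAT2_CARIT against Control and 0.8 between the vectors, where 3 libraries a group allow no p below 0.1, so these tests could not pass. A limma fit with no filter on low values gave Il2 log2 changes of -0.16 (95% interval -0.49 to 0.17; adjusted p = 0.406) with NFAT2_CA against Control, -0.10 (-0.43 to 0.23; 0.606) with NFAT2_CARIT against Control and 0.06 (-0.27 to 0.39; 0.847) between the vectors. None of the 3 passed, and the intervals leave room for a change in either direction. Without stated strand use, reads of the overlapping genes Adad1 at Il2, Gm12223 at Csf2 and Gm49751 at Ifng may be among the few reads of these 3 genes. Il21, a cytokine gene on the same chromosome, lies 96799 bases away and was more than 10-fold higher with both vectors.

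Set per kilobase of exon, which allows genes to be compared, the cytokine order differed between the groups. With NFAT2_CA, Il10 was highest at 24.3 CPM per kb, followed by Ccl5 at 7.85, Il4 at 4.56, Csf1 at 3.18 and Il21 at 2.96 CPM per kb, with Ifng, Il2 and Csf2 between 0.103 and 0.579 CPM per kb. Csf1 and Il21 overlapped in that order, as did Ifng with Il2 and Il2 with Csf2. With NFAT2_CARIT the order was Ccl5 at 13.6, Il10 at 8.56, Il4 at 4.97, Il21 at 3.65 and Csf1 at 1.10 CPM per kb, then Csf2, Ifng and Il2 with overlapping libraries. In Control, Ccl5 led at 12.7 CPM per kb, ahead of Il4 at 2.70 and Il10 at 1.28 CPM per kb, and the other 5 genes overlapped their neighbours in the order at 0.185 to 0.765 CPM per kb. Il10 made up 55.5% ± 2.33 of the summed level per kb of the 8 genes with NFAT2_CA, 25.8% ± 1.06 with NFAT2_CARIT and 7.05% ± 1.85 in Control (SD, n = 3 each). Ccl5 made up 17.9% ± 1.37, 41.1% ± 1.75 and 69.0% ± 1.16 in the same order. The sum itself was 43.8 ± 2.21, 33.2 ± 1.80 and 18.5 ± 1.91 CPM per kb. The exonic lengths come from the mouse GENCODE release 21 and range from 800 bases (Csf2) to 5281 bases (Csf1), and transcripts shorter than the union of exons would have their level per kb understated.

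**Figure D4:**
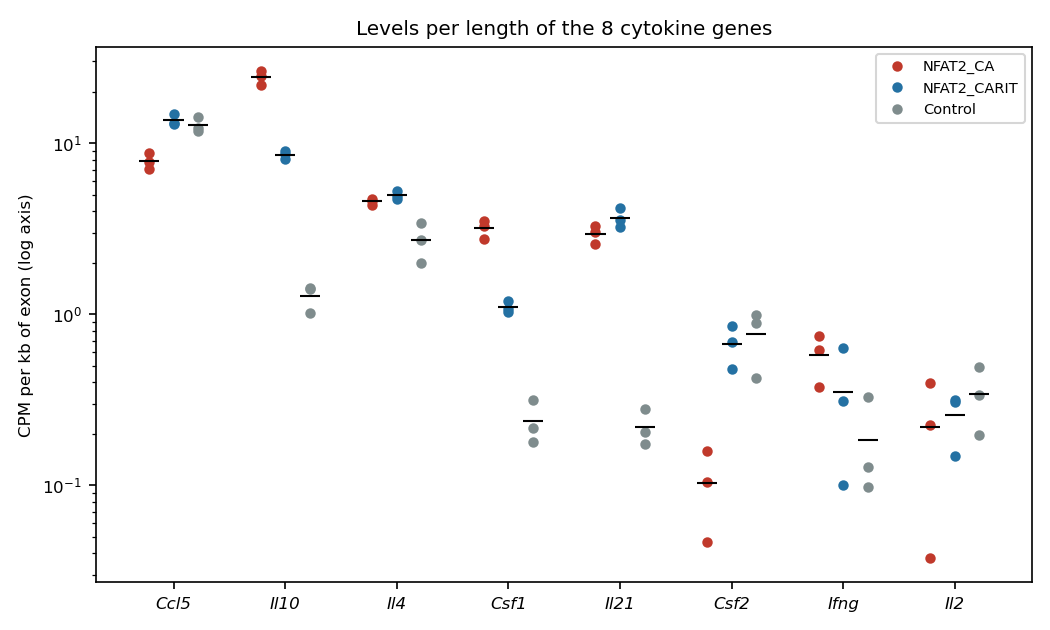
CPM per kilobase of exon for the 8 cytokine genes in each library (points, log axis) with group means (bars), for NFAT2_CA, NFAT2_CARIT and Control. Il10 lies above Ccl5 only with NFAT2_CA (24.3 against 7.85 CPM per kb), while Ccl5 leads with NFAT2_CARIT (13.6) and in Control (12.7).

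Other secreted cytokines went both ways. Of 30 on the list, 20 were in the table and 17 were tested. With NFAT2_CA against Control 6 rose, 8 fell and 3 did not pass, with a median log2 fold change of -0.25 beside -0.04 over all genes tested. With NFAT2_CARIT 5 rose, 10 fell and 2 did not pass (median -0.54 beside -0.08 over all genes). Of all genes tested 27.8% rose and 34.0% fell with NFAT2_CA, and 27.7% rose and 38.6% fell with NFAT2_CARIT. Spp1, which encodes osteopontin, averaged 10.5 ± 0.869 CPM with NFAT2_CA and 8.49 ± 0.289 CPM with NFAT2_CARIT, against 0.225 ± 0.108 CPM in Control (SD, n = 3 each), log2 changes of 3.24 and 2.96. At that Control level, under 0.5 CPM, the entry of Spp1 into the test depended on the NFAT2_CA and NFAT2_CARIT libraries. Lif, an IL-6 family cytokine, rose by 1.47 and 0.92, with 20.8, 13.9 and 6.86 CPM in NFAT2_CA, NFAT2_CARIT and Control. Flt3l, a growth factor of dendritic cell precursors, fell, with log2 changes of -1.53 with NFAT2_CA and -1.69 with NFAT2_CARIT, as did Ebi3, the subunit shared by IL-27 and IL-35, with -1.42 and -1.51. Lta, which encodes lymphotoxin alpha, fell with -0.63 and -1.21.

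Between the vectors 2 of these 17 genes were higher and 6 lower with NFAT2_CARIT than with NFAT2_CA, and 9 did not pass (median -0.26 beside -0.03 over all genes). Of all genes tested 10.6% were higher and 15.3% lower. The share of higher calls over all genes in this comparison depended on the scaling: it was 40.9% (1513 higher, 2187 lower) as deposited, 55.5% with TMM factors and 50.7% after quantile normalization. Tnfsf14 encodes LIGHT, a TNF family ligand. It averaged 2.72 ± 0.652 CPM with NFAT2_CARIT and 13.1 ± 1.64 CPM with NFAT2_CA (SD, n = 3 each), a log2 difference of -1.93 ± 0.14 (limma, adjusted p = 8.63e-08), with 5.71 CPM in Control. Tgfb3, a transforming growth factor beta gene, was lower with NFAT2_CARIT (log2 difference -0.62, 24.2 against 37.7 CPM), and so was Lta (-0.58). Penk, the precursor of enkephalin peptides, was higher by 0.66 at low levels (1.92 against 0.863 CPM). Of the 13 T cell chemokines listed beside Ccl5, 1 was in the table and none was tested.

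Of 17 receptor genes for the 8 cytokines 11 were tested, and with each vector against Control 2 rose, 8 fell and 1 did not pass, where 34.0% of all genes tested fell with NFAT2_CA and 38.6% with NFAT2_CARIT. The median log2 fold change of the 11 was -0.70 with NFAT2_CA (-0.04 over all genes) and -0.60 with NFAT2_CARIT (-0.08 over all genes). Il4ra, the IL-4 receptor chain, fell with log2 changes of -1.22 and -1.30, to 407 and 385 CPM, against 950.2 CPM in Control. Il21r, the receptor of the product of Il21, fell with -0.98 and -1.06, to 107 and 100.4 CPM, against 211 CPM. Il10rb, a chain of the IL-10 receptor, fell with -0.98 and -0.89, to 40.5 and 43.0 CPM, against 80.7 CPM. The ligand genes Il10, Il21 and Il4 thus rose in the same libraries in which these receptor chains fell. The 2 receptor genes that rose were Ifngr2 (0.46 and 0.70) and Il2ra (0.26 and 0.18), a chain of the receptors for interferon gamma and for IL-2. Between the vectors 3 were higher and 1 lower with NFAT2_CARIT, all by less than 0.4 (Il2rg 0.31, Il10ra 0.26, Ifngr2 0.24 and Csf2ra -0.36). The fall of Csf2ra was not called after TMM or quantile scaling. In this comparison 10.6% of all genes tested were higher and 15.3% lower.

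**Figure D5:**
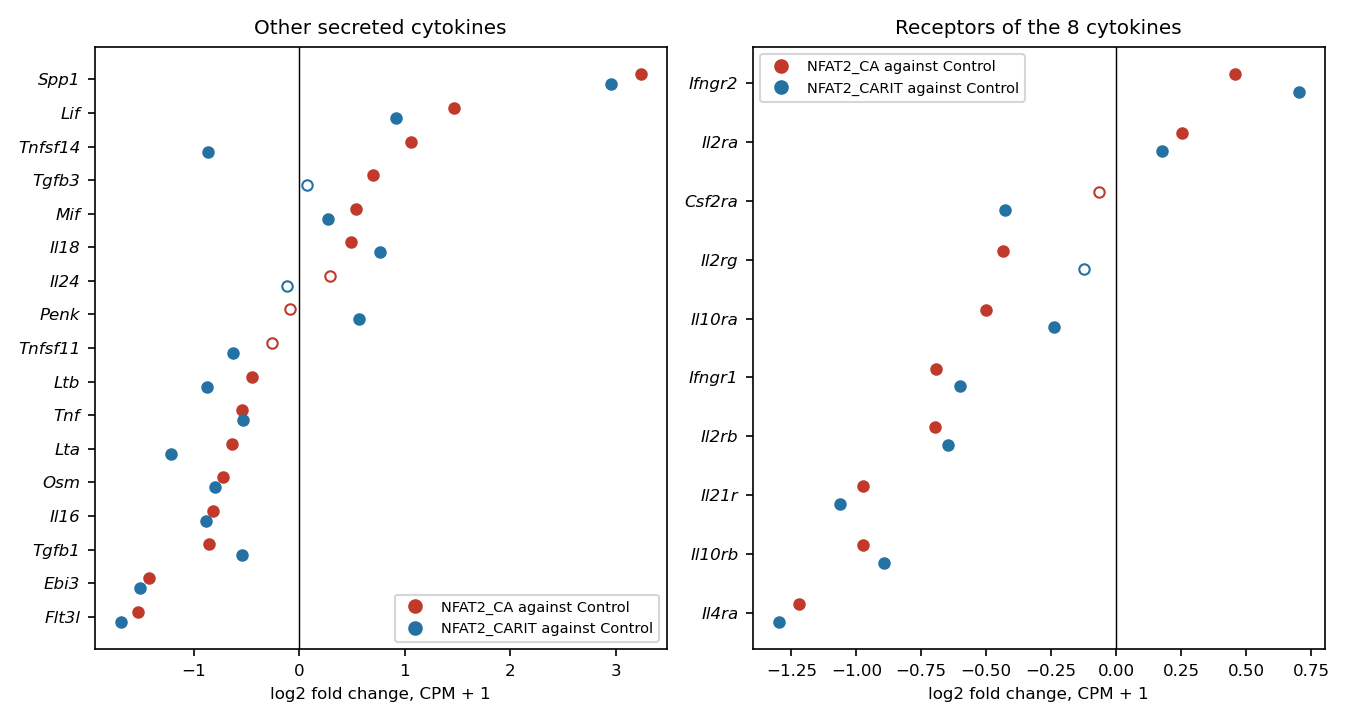
Log2 fold change on CPM + 1 of the 17 other secreted cytokine genes tested (left) and of 10 of the 11 receptor genes tested (right), for NFAT2_CA against Control (red) and NFAT2_CARIT against Control (blue); filled points have an adjusted p under 0.05. Spp1 lies furthest right (3.24 and 2.96), Il4ra is the lowest receptor gene drawn (-1.22 and -1.30), and Tnfsf14 is the cytokine gene that rose with NFAT2_CA (1.07) and fell with NFAT2_CARIT (-0.86).

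Transcription factors known to act at cytokine genes were all in the table and tested, 28 of 28. With NFAT2_CA 10 rose, 10 fell and 8 did not pass, and with NFAT2_CARIT 12 rose, 11 fell and 5 did not pass. Over all genes tested 61.8% and 66.4% were called in these comparisons, so the number of calls does not set the factors apart, and their medians were 0.005 and -0.009 beside -0.04 and -0.08 over all genes. Ahr, a ligand-activated factor tied to Il10 and Il21 expression, averaged 94.9 ± 1.88 CPM with NFAT2_CA, 44.3 ± 1.55 CPM with NFAT2_CARIT and 2.43 ± 0.447 CPM in Control (SD, n = 3 each). Its log2 changes were 4.81 and 3.73 against Control and -1.08 between the vectors, the same order of groups as for Il10 and Csf1. Irf4, Fosl2, Fosb, Gata3 and Nfatc1 in this list had that order too. The part of Ahr and of these factors in the cytokine results was not tested. Irf4, which binds with AP-1 family dimers in T cells, rose by 2.62 and 1.99. Among Fos family genes, Fosl2 rose by 2.20 and 1.83 and Fosb by 2.36 and 1.47. Fosb averaged 0.179 CPM in Control, so its entry into the test depended on the NFAT2_CA and NFAT2_CARIT libraries. Fos itself did not pass with NFAT2_CA, at 0.38 (limma, adjusted p = 0.319), and rose by 1.20 with NFAT2_CARIT (limma, adjusted p = 0.00608). The difference of Fos between the vectors, 0.83 ± 0.31, did not pass (limma, adjusted p = 0.0799). Fos averaged 3.53, 6.92 and 2.73 CPM with NFAT2_CA, NFAT2_CARIT and Control, with an SD of 1.85 CPM in Control. Bcl6, the factor of follicular helper cells, had 66.1, 119 and 36.3 CPM with NFAT2_CA, NFAT2_CARIT and Control, and it was 0.84 higher with NFAT2_CARIT than with NFAT2_CA. Ikzf3, the lymphocyte factor Aiolos, was lower in that comparison (-0.69). Maf, an activator of Il4, Il10 and Il21, fell, with log2 changes of -1.98 with NFAT2_CA and -1.49 with NFAT2_CARIT.

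Genes that respond to these cytokines were read from 2 further lists. Of 12 genes of the IL-2 and STAT5 response, 3 rose and 7 fell with NFAT2_CA (median -0.31) and 4 rose and 8 fell with NFAT2_CARIT (median -0.69). Over all genes tested 27.8% rose and 34.0% fell with NFAT2_CA (median -0.04), and 27.7% rose and 38.6% fell with NFAT2_CARIT (median -0.08). Gzmb, which encodes granzyme B, averaged 71.0 CPM with NFAT2_CA and 71.9 CPM with NFAT2_CARIT, against 221 CPM in Control, log2 changes of -1.63 and -1.61. Ccnd2, a cyclin of cell cycle entry, fell with -1.35 and -1.78, and Osm, oncostatin M, with -0.73 and -0.80. Socs2, a feedback inhibitor, rose by 0.94 with NFAT2_CARIT. Between the vectors 2 were higher and 5 lower with NFAT2_CARIT (3 and 4 with TMM factors), among them Pim1 (0.52), Socs2 (0.56), Socs1 (-0.63) and Lta. In this comparison 10.6% of all genes tested were higher and 15.3% lower.

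Of 15 tested genes of the interferon gamma response, 3 rose and 7 fell with NFAT2_CA (median -0.18) and 3 rose and 8 fell with NFAT2_CARIT (median -0.33). The number of calls was near the share over all genes (61.8% and 66.4%), and the medians over all genes were -0.04 and -0.08. Irgm1, an immunity-related GTPase, averaged 93.2 CPM with NFAT2_CA and 89.3 CPM with NFAT2_CARIT, against 240.0 CPM in Control (log2 changes of -1.35 and -1.41). Igtp, of the same family, fell with -0.87 and -1.29, Irf1 with -0.96 under NFAT2_CA, and Gbp7 with -1.06 under NFAT2_CARIT. Gbp2, a guanylate-binding protein gene, rose by 0.92 with NFAT2_CA, at 337 CPM against 178 CPM. Cd274, which encodes PD-L1, was the gene called higher between the vectors, with a log2 difference of 1.24. It averaged 71.3 ± 1.61 CPM with NFAT2_CARIT and 29.7 ± 1.76 CPM with NFAT2_CA (SD, n = 3 each), with 38.4 CPM in Control. Against Control it fell with NFAT2_CA (log2 change -0.36) and rose with NFAT2_CARIT (0.88). Gbp2, Igtp and Socs1 were among the 6 lower (5 with TMM factors). In this comparison 10.6% of all genes tested were higher and 15.3% lower.

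The genes whose profile over the 9 libraries was most like that of each cytokine were found by the root mean square difference in log2(CPM + 1), each gene set to its Control mean. Among the closest to Il10 were Synpo (0.13) and Nkg7 (0.16), and closest to Csf1 were Spry1 (0.16), Marcksl1 (0.20) and Map9 (0.24). Synpo averaged 75.4 CPM with NFAT2_CA, 28.4 CPM with NFAT2_CARIT and 5.38 CPM in Control. Spry1, a feedback inhibitor of receptor signalling, averaged 40.3, 17.7 and 4.87 CPM in the same order. Prr11 (0.14), Zfp9 (0.18) and Kank2 (0.18) were closest to Il21, and Prr11 averaged 156, 181 and 19.4 CPM. Gna15 (0.12), Themis2 (0.13) and Rhoc (0.14) were closest to Ccl5, with Gna15, a G protein subunit gene, at 13.6, 26.1 and 23.4 CPM. For Il4 they were Tmem60 (0.07), Fundc2 (0.09) and Dgcr6 (0.10), for Csf2 Gucd1 (0.12), Slc25a16 (0.14) and Atp5h (0.14), and for Ifng Septin4 (0.14), Fam227a (0.16) and Aacs (0.17). Because 1 CPM was added, low genes can look alike here at unlike fold changes. Gucd1 averaged 30.5 CPM with NFAT2_CA and 44.8 CPM in Control, where Csf2 averaged 0.0825 and 0.612 CPM. Septin4 averaged 9.56 and 6.71 CPM in these 2 groups, where Ifng averaged 0.749 and 0.239 CPM. These profiles describe levels over the same 9 libraries and nothing more.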

How the data were processed

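The deposited table of expression values is in CPM: the authors scaled each library's reads to a fixed sum over the 16500 listed genes and added 0.0001 to every value, both read from the values themselves, and this addition was subtracted here. The authors' comparison table gives p-values, FDR values (adjusted p-values), ratios of group means and their log2, per the file headers. The submitters' processing notes name Partek 10, DESeq2 and mm10, and which aligner, quantifier, annotation and strand setting were used is not given in the sources used here. Depth was estimated from the spacing of low values. With it 81.3% to 84.4% of values under 1 CPM were whole reads within 0.1 read, below the 95% needed to rebuild counts. No count model was therefore fitted over the libraries. Only the exact counting intervals of Csf2 and Ifng used reads, as estimates summed over each group and rounded.

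The log2(CPM + 1) values of all 9 libraries were fitted in limma 3.58.1 (R 4.3.3) with group means, trend and robust empirical Bayes, and Benjamini-Hochberg adjustment over the 14340 genes with at least 0.5 CPM in at least 3 libraries. The script was tested on simulated data. For Il2, exact permutation tests and a limma fit with no filter were used. Python 3.11.15 with SciPy 1.17.1, pandas 2.3.3 and matplotlib 3.10.9 did the rest. Motifs were counted on both strands. Named were the 8 genes, Nfatc1, up to 4 called genes of each of 6 lists in each comparison, called genes within 200 kb of the 8, and the 3 genes most like each in profile. Some further genes (Il13, Maf, Fos, Il2ra, Il24 and the cell type markers) were named after their values were seen. A few genes picked by these rules are not reported here. The members, lists and tests were chosen with earlier results of these data known. No library was a copy of another: within groups the median chi-square per gene was 1.25 to 2.81. Alternatives were pseudocounts, filters, scalings, the libraries in the fit, a replicate block, the authors' table and leaving out each library.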

Additional observations from a re-analysis of the deposited data

Results flagged for a closer look

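Ccl5 is listed because its estimates against Control had opposite signs with the 2 vectors and the vectors differed in the test of that difference. It was 0.63 lower with NFAT2_CA and 0.09 higher with NFAT2_CARIT on the log2 scale, and NFAT2_CARIT exceeded NFAT2_CA by 0.72 (limma, adjusted p = 0.000132), with all 3 NFAT2_CARIT libraries above all 3 NFAT2_CA libraries. The difference of NFAT2_CARIT from Control did not itself pass (limma, adjusted p = 0.454), so a rise with NFAT2_CARIT is not shown.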

How the results depend on the processing

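The calls of Il10, Csf1, Il21, Il4 and Ccl5 held in every limma setting that tested them (17 or 18 settings each). A filter of 10 CPM left Il4, Ifng and Csf2 untested and the number of these genes called with NFAT2_CA against Control at 4. In the authors' deposited table that number was 3, and 2 between the vectors. That table calls 3602 genes with NFAT2_CA against Control, 4216 with NFAT2_CARIT against Control and 468 between the vectors, against 8868, 9515 and 3700 by limma. Whether its test used reads or CPM is not stated, and the cause of the gap was not tested.

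Leaving out each library in turn gave 6 to 7 of the genes called with NFAT2_CA against Control, 4 to 4 with NFAT2_CARIT against Control and 3 to 4 between the vectors. Over all genes it gave 8226 to 8905, 8798 to 9844 and 2740 to 4165 calls. The log2 fold change of Csf2 with NFAT2_CARIT against Control changed sign, at 0.01 without NFAT2_CARIT replicate 2 and 0.02 without Control replicate 2 (range -0.19 to 0.02), and was called in none of them.

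Replicate numbers gave no clear pairing of the samples: of 9 same-number pairs 2 had a correlation of deviations over 0.1 (range -0.05 to 0.26). Both were between the vectors, where the same-number pairs gave 0.075, 0.106 and 0.263 and the other pairs -0.27 to 0.212. With 3 libraries a group these values cannot settle whether the vectors were paired. A fit with the replicate block called 7, 4 and 4 of these genes, and 8870, 9507 and 3509 genes in all. Depth limits Il2, Csf2 and Ifng most: 0.5 CPM rests on 9.97 to 19.1 reads.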

Other observations

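Pairs of values here are log2 changes with NFAT2_CA and then with NFAT2_CARIT, each against Control, for genes within 200 kb of a cytokine gene. Over all genes tested 61.8% were called with NFAT2_CA against Control, 66.4% with NFAT2_CARIT against Control and 25.8% between the vectors. A call near a cytokine gene therefore does not by itself set its region apart. Around Il10, where 7 genes were tested, Mapkapk2, a stress kinase gene, rose by 0.45 with NFAT2_CA and 0.84 with NFAT2_CARIT, Rassf5 fell (-0.60 and -1.07), and the other 5 did not pass, among them the cytokine gene Il24 (1.27, 0.708 and 0.853 CPM with NFAT2_CA, NFAT2_CARIT and Control). Around Il21, Fgf2, a fibroblast growth factor gene 115709 bases away, averaged 16.9 CPM with NFAT2_CA and 21.1 CPM with NFAT2_CARIT, against 3.83 CPM in Control (log2 changes of 1.90 and 2.20). It was 0.31 higher with NFAT2_CARIT than with NFAT2_CA (limma, adjusted p = 0.0446). Nudt6, 172273 bases from Il21, fell (-0.97 and -1.31), and Bbs12 fell (-0.93 and -1.47). Cetn4 rose by 0.74 and 0.54, and Spata5 rose by 0.46 with NFAT2_CA. The antisense gene Gm12534 rose by 0.53 with NFAT2_CA (limma, adjusted p = 0.0338), and 4932438A13Rik fell by 0.42.

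Around Il4, the neighbour Kif3a, 1014 bases away, fell (-0.45 and -0.43), as did Rad50 (-0.34 and -0.55), Gm12216 (-0.49 and -0.54) and Irf1 (-0.96 and -0.95), while Aff4 rose by 0.23 with NFAT2_CARIT and Septin8 was 0.35 higher with NFAT2_CARIT than with NFAT2_CA. Beside Ifng, the noncoding gene Ifngas1 averaged 0.199 CPM with NFAT2_CA and 0.0958 CPM with NFAT2_CARIT, against 2.56 CPM in Control, log2 changes of -1.55 and -1.68, and the gene model Gm9045 fell (-0.39 and -0.34). Near Csf1, Ahcyl1 rose by 0.53 and 0.18, and Gstm5 rose by 1.11 with NFAT2_CA. Gstm5 averaged 1.46 CPM with NFAT2_CA, 0.372 CPM with NFAT2_CARIT and 0.144 CPM in Control. Near Csf2, Pdlim4 fell (-1.04 and -0.34), Fnip1 rose by 0.66 and 0.95, P4ha2 by 0.27 and 0.43 and Gm12226 by 0.33 and 0.48. Pdlim4 was also 0.70 higher with NFAT2_CARIT than with NFAT2_CA. Near Ccl5, Ap2b1 rose by 0.31 with NFAT2_CARIT. Tested genes not called with NFAT2_CA and then NFAT2_CARIT against Control were 0 and 3 of 7 around Il21. They were 4 and 3 of 8 around Il4, and 4 and 4 of 6 around Ifng. Around Csf1 they were 1 and 3 of 4, around Csf2 0 and 0 of 4, and around Ccl5 2 and 1 of 2. Gstm5, Gm12534 and Ifngas1 each averaged under 0.5 CPM outside the group where they were highest, so their entry into the test depended on that group. The cause of these changes was not tested.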
